A study of Homo sapiens with 4 samples.

Results

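The E2F and RB family genes described here are E2F1 to E2F8, RB1 and RBL1, 10 genes chosen by name and matched by Ensembl identifier among the 19901 protein-coding genes of a TT-Seq count table. All 10 were measured in every library and passed the filter on low counts, with between 2547 (E2F1) and 53092 (E2F3) counts per library. In TT-Seq, cells take up 4-thiouridine (4sU) briefly and only the RNA that contains it is purified and sequenced, so the values are those of newly made RNA over whole genes, introns included. The cells were HCT116, a colon cancer line, in which the KAP1 protein (gene TRIM28), a transcriptional regulator that binds chromatin, carries a C-terminal degron tag. The compound dTAG-13 directs the tagged protein to an E3 ubiquitin ligase and so to degradation. All libraries come from the tagged line, which is 1 clone (D5) growing in medium with serum. The groups were DMSO (vehicle) for 8 h, with 2 libraries, and dTAG for 8 h, with 2 libraries, and both had 4sU at 500 μM for the last 10 min. The question for these genes was whether loss of KAP1 from cycling cells changed their transcription.

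E2F proteins bind DNA, mostly as dimers with a DP partner, and control genes that cells need to pass from G1 into S phase. RB1 encodes the retinoblastoma protein and RBL1 encodes its relative p107, which are pocket proteins that bind E2Fs and hold their target genes down until cyclin-dependent kinases phosphorylate them. E2F1, E2F2 and E2F3 are the activators, E2F4 and E2F5 act mainly with pocket proteins as repressors, E2F6 represses without a pocket protein, and E2F7 and E2F8 are atypical repressors that do without a DP partner.

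Several of these genes are themselves targets of E2F, and their promoters are shown because the words that E2F binds lie close to the start site. The RefSeq promoter table (build GRCh38.p14), with windows from 250 bases before to 50 bases after a start, was searched on both strands for the words TTTCCCGC, TTTCGCGC, TTTGCCGC and TTTGGCGC, forms of the E2F site, and no matches within a gene listed here overlapped. Of the 35116 windows in the table, 3.31% held at least 1 of these words and 0.145% held at least 2. Among the members, 8 had a window, and 4 of these had a word. In the window of E2F1, the words began 33 and 20 bases before the start, and in that of RBL1 they began 26 and 16 bases before it. E2F2 had 1 word, 42 bases before its start, and E2F3 had 1 word, 53 bases before the first of its 2 listed starts. No word was found in the windows of E2F4, E2F6, E2F7 or the later start of E2F3, and the window listed for RB1 lies inside the gene. The 150 bases that end each of these windows are given 5′ to 3′ on the strand of the gene, with the words in capitals, and E2F4 is shown as the member with a called change. They are chr20:33686336-33686485 (minus strand) for E2F1, chr20:37095948-37096097 (minus strand) for RBL1, chr1:23531184-23531333 (minus strand) for E2F2, chr6:20401779-20401928 (plus strand) for E2F3 and chr16:67192055-67192204 (plus strand) for E2F4. A match is a description of letters and not of binding.
E2F1: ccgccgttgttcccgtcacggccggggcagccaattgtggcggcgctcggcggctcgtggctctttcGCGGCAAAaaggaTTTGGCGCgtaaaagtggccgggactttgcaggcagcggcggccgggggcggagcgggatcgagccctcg
RBL1: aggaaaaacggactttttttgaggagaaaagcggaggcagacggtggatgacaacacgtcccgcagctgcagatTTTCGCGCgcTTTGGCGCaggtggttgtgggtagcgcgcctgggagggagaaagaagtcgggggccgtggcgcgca
E2F2: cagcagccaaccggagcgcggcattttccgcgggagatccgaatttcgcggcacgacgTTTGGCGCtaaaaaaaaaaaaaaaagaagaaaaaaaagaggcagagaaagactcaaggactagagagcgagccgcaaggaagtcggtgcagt
E2F3: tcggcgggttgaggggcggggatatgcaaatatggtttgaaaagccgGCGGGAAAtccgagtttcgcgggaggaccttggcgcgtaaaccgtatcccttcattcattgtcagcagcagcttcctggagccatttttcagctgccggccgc
E2F4: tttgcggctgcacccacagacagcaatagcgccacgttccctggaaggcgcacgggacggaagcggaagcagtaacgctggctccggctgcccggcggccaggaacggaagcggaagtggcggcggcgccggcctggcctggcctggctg
The words of E2F1 and RBL1 lie close together just before the start, and the shown part of E2F4 has none.

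Gene counts were between 93105627 and 102314741 per library. Of the 12612 genes that reached 50 counts in every library, 434 were higher and 461 lower with dTAG at a Benjamini-Hochberg adjusted p under 0.05 from the quasi-likelihood test of edgeR, and these are the genes called here. Fold changes of the tested genes ran against GC content (Spearman's rho -0.56) and with gene length (0.42). The ratio of DMSO replicate 2 to replicate 1 rose with GC content (rho 0.75), and that of dTAG replicate 2 to replicate 1 fell with it (rho -0.43). Genes are not independent replicates, so these are descriptions. Values with each library's trends on GC content and length removed are given beside those of the main fit. TRIM28, which encodes KAP1, fell by 0.37 on the log2 scale (standard error 0.092, edgeR adjusted p = 0.019), and its log2 fold change was -0.10 (adjusted p = 0.17) with the trends removed. With a replicate block the adjusted p of TRIM28 was 0.059, with the ERCC spike-in factor as a covariate it was 0.13, and without dTAG replicate 1 or 2 it was 0.18 and 0.88. The compound acts on the protein, so this RNA does not check the labels. All 6 epithelial markers were tested, with summed CPM between 1096 and 1216. The summed CPM of 6 markers of other cell types was between 5.13 and 5.98. Of these 6, only the fibroblast marker COL1A1 was tested, with up to 538 counts in a library. The endothelial marker PECAM1 had 24 to 39 counts and the liver marker ALB 3 to 15. The fibroblast marker DCN had 0 to 4, the blood marker PTPRC 0 to 1 and the fibroblast marker COL1A2 0.

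Of the 10 members, 0 rose and 1, E2F4, fell with dTAG by edgeR's quasi-likelihood test, beside 3.44% of all tested genes called higher and 3.66% called lower. DESeq2 gave the same counts, beside 680 genes higher and 572 lower of the 12612 tested. At an unadjusted p under 0.05, 1 member was higher (E2F6) and 1 lower (E2F4), beside 12.3% and 14.3% of tested genes. All 10 members had a 95% interval of the fold change inside 1.5-fold either way, as did 79.3% of tested genes. Both dTAG libraries lay above both DMSO libraries for 6 members, namely E2F3, E2F5, E2F6, E2F8, RB1 and RBL1, beside 28.1% of tested genes. They lay below them for E2F4 alone, beside 30.7%, and the groups overlapped for E2F1, E2F2 and E2F7. The median log2 fold change of the members was 0.12, and that of all tested genes was -0.015. With the trends removed, the members' median was 0.027.

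**Figure D1:**
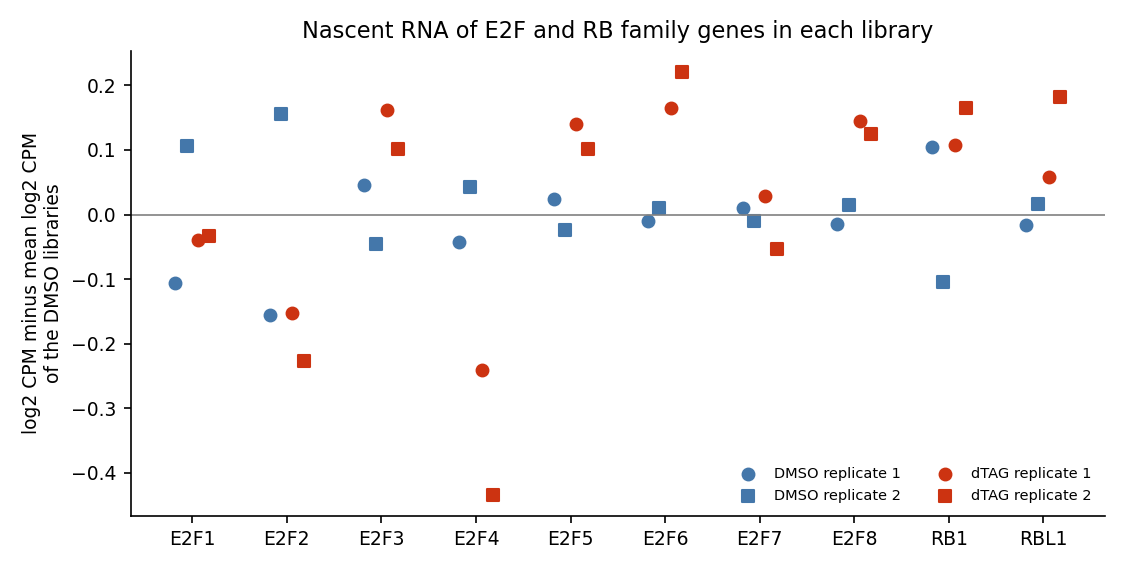
For each gene on the x axis, the log2 CPM of each of the 4 libraries is plotted relative to the mean log2 CPM of the 2 DMSO libraries (blue, DMSO; red, dTAG; circles, replicate 1; squares, replicate 2). Both dTAG points lie above both DMSO points in 6 genes and below them in E2F4, and the DMSO replicates lie furthest apart in E2F2.

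Per kilobase of gene, the members spanned a wide range of levels in DMSO. E2F4 was the highest at 6.84 CPM per kb, in the 93.8th percentile of tested genes, and RB1 the lowest at 0.411 CPM per kb, in the 26.4th percentile. Between them lay E2F3 at 5.17, E2F2 at 3.79, E2F6 at 3.61, E2F7 at 3.14, E2F1 at 2.702, E2F8 at 1.69, RBL1 at 1.55 and E2F5 at 1.36 CPM per kb. Of the neighbours in this order, only E2F2 and E2F6 had DMSO libraries whose ranges overlapped (3.38 to 4.19 and 3.59 to 3.64 CPM per kb), so that their order is not given by these libraries. The order depends on the length used. Counts were taken over whole genes, so a length of exons leaves introns out of the length but not out of the counts. Divided by the length of merged exons in place of the whole gene, E2F3 was the highest at 91.4 CPM per kb of exon, followed by RBL1 at 25.9 CPM, and E2F8 was the lowest at 7.19 CPM. RB1, which spans 296 kb, went from the lowest place to the fifth (18.9 CPM per kb of exon), and E2F4, which spans 6.75 kb, from the highest to the seventh (12.8 CPM per kb of exon).

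**Figure D2:**
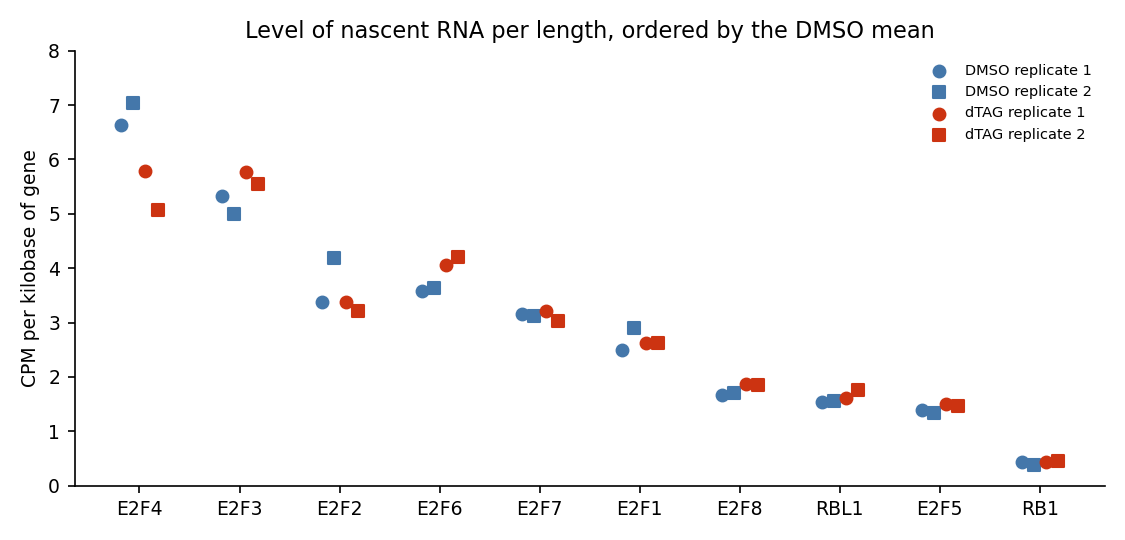
The level of each gene in each of the 4 libraries is plotted as CPM per kilobase of gene on a linear axis from 0, with genes ordered by the DMSO mean. E2F4 leads at 6.84 CPM per kb in DMSO, RB1 is lowest at 0.411 CPM per kb, and the order of E2F2 and E2F6 differs between libraries.

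The activators did not pass the test. E2F1 (ENSG00000101412.12, chr20:33675683-33686404 of hg38), the activator best known for driving S phase entry, had 26.8 and 31.1 CPM in the DMSO libraries and 28.1 and 28.2 CPM in the dTAG libraries. Both dTAG values lay between the DMSO values. Its log2 fold change was -0.04 (standard error 0.10, 95% interval -0.26 to 0.18), with an edgeR adjusted p of 0.83. The value was 0.18 (adjusted p = 0.077) with the trends removed, so that the direction of E2F1 depends on this choice.

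E2F2 (ENSG00000007968.6, chr1:23506430-23531220) had 83.8 and 104 CPM with DMSO and 84.0 and 79.8 CPM with dTAG. DMSO replicate 2 stood above the other 3 libraries, which lay close together. Without it the log2 fold change of E2F2 was -0.03, and without DMSO replicate 1 it was -0.34 (edgeR adjusted p = 1.1e-05). With all 4 libraries the log2 fold change was -0.20 (standard error 0.095, interval -0.40 to 0.0010), with an edgeR adjusted p of 0.19, and it was -0.07 (adjusted p = 0.38) with the trends removed.

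E2F3 (ENSG00000112242.14, chr6:20401906-20493715) had the most counts of the family, with 489 and 459 CPM with DMSO and 530 and 509 CPM with dTAG. The groups did not overlap, but the distance between them was small. The log2 fold change of E2F3 was 0.13 (standard error 0.098, interval -0.07 to 0.33), with an edgeR adjusted p of 0.40, and it was 0.05 with the trends removed. E2F3 is transcribed from more than 1 start, and counts over the whole gene do not tell its isoforms apart.

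Among the E2Fs that act with pocket proteins, E2F4 fell with dTAG and E2F5 did not pass the test. E2F4 (ENSG00000205250.8), an E2F that acts with p107 and p130, had 44.8 and 47.6 CPM with DMSO and 39.1 and 34.2 CPM with dTAG. Both dTAG libraries lay below both DMSO libraries, and the dTAG libraries differed from each other more than the DMSO libraries did. The level fell by 0.33 on the log2 scale, to 0.793 of that in DMSO (standard error 0.096, interval -0.53 to -0.13), with an edgeR adjusted p of 0.040. This was the only call among the 10 members, and it was not kept in several other settings. With a replicate block the log2 fold change was -0.34 (adjusted p = 0.13), with the trends on GC content and length removed it was -0.10 (adjusted p = 0.27), and with the ERCC spike-in factor as a covariate it was -0.21 (adjusted p = 0.14). It was -0.43 without dTAG replicate 1 (adjusted p = 0.24) and -0.24 without dTAG replicate 2 (adjusted p = 0.94). With libraries scaled by their ERCC totals, a scaling in which the median over the tested genes was 0.64, E2F4 was at 0.31, positive but below that median, and was not called. Over all the alternatives the adjusted p of E2F4 ran from 7.8e-05 to 0.94. E2F4 lies on chr16:67192169-67198918, has the highest GC content of the family at 56.5% and is the shortest gene at 6.75 kb.

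The 3 tested genes whose log2 CPM, centred over the 4 libraries, lay nearest to that of E2F4 among 12611 were CPM (the carboxypeptidase M gene), SURF1 and MOGS, at Euclidean distances of 0.019, 0.022 and 0.026. Over 4 libraries such likeness is a description only.

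E2F5 (ENSG00000133740.10, chr8:85177225-85217158) had 55.3 and 53.5 CPM with DMSO and 59.9 and 58.4 CPM with dTAG, with no overlap between the groups. Its log2 fold change was 0.12 (standard error 0.085, interval -0.06 to 0.30), with an edgeR adjusted p of 0.37, and it was 0.01 with the trends removed. Its 3′ part overlaps RBIS on the opposite strand over 3111 bases. RBIS had a log2 fold change of 0.18 (edgeR adjusted p = 0.24), and since the strand setting of the counting is not stated, reads of these genes may not be told apart there.

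E2F6 (ENSG00000169016.16, chr2:11444375-11466177), which represses as part of a Polycomb complex, was the member with the largest positive difference in the main fit. It had 78.3 and 79.3 CPM with DMSO and 88.3 and 91.8 CPM with dTAG, and the distance between the groups exceeded the spread within either. The log2 fold change was 0.19 (standard error 0.082, interval 0.02 to 0.36), with an unadjusted p of 0.029 and an edgeR adjusted p of 0.14. It was 0.15 with the trends removed, where the adjusted p was 0.043, so that E2F6 passed in that setting. E2F6 did not pass with DESeq2 (adjusted p = 0.12). By edgeR it did not pass with upper-quartile normalization (adjusted p = 0.33), the replicate block (0.40) or the ERCC factor (0.080). Its log2 fold change was 0.18 and 0.20 without DMSO replicate 1 or 2, and 0.22 and 0.16 without dTAG replicate 1 or 2. With the trends removed, 1 member was called higher and 0 lower, beside 10.6% and 7.46% of all tested genes.

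The atypical E2Fs did not pass the test either. E2F7 (ENSG00000165891.15, chr12:77021247-77065580) had 140 and 138 CPM with DMSO and 142 and 134 CPM with dTAG, so the dTAG libraries lay on either side of the DMSO libraries. Its log2 fold change of -0.01 was the smallest of the family (standard error 0.084, interval -0.19 to 0.16, edgeR adjusted p = 0.94), and it was -0.11 (adjusted p = 0.12) with the trends removed. E2F8 (ENSG00000129173.12, chr11:19224063-19241620) had 29.4 and 30.0 CPM with DMSO and 32.9 and 32.4 CPM with dTAG. The replicates of E2F8 lay close together and the groups did not overlap. The difference was 0.14 on the log2 scale (standard error 0.097, interval -0.07 to 0.34), with an edgeR adjusted p of 0.38, and 0.10 with the trends removed. Nearly all of E2F8 (99.99%) lies within the antisense long non-coding RNA gene CSRP3-AS1, which was not counted as a gene of its own.

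The pocket protein genes had small positive differences that did not pass the test. RB1 (ENSG00000139687.14, chr13:48303726-48599436) had 130 and 113 CPM with DMSO and 130 and 136 CPM with dTAG. DMSO replicate 1 lay close to dTAG replicate 1 and just below it, and DMSO replicate 2 stood below the other 3 libraries. The log2 fold change of RB1 was 0.13 (standard error 0.089, interval -0.05 to 0.32, edgeR adjusted p = 0.34), 0.01 with the trends removed and -0.04 with the ERCC factor as a covariate. It was 0.24 without DMSO replicate 1 (edgeR adjusted p = 0.0025) and 0.030 without DMSO replicate 2 (adjusted p = 0.83), so that 1 DMSO library decides it. LPAR6 and RCBTB2 lie on the opposite strand over 18.65% and 14.98% of RB1, with only 5 to 14 and 376 to 479 counts per library.

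RBL1 (ENSG00000080839.11, chr20:36996349-37095995), which pairs mainly with E2F4 and E2F5, had 152 and 156 CPM with DMSO and 161 and 175 CPM with dTAG. The groups did not overlap, with most of the distance in dTAG replicate 2. For RBL1 the log2 fold change was 0.12 (standard error 0.086, interval -0.06 to 0.30, edgeR adjusted p = 0.37), and it was 0.04 with the trends removed. RBL2, the gene for the third pocket protein p130, had 41.1 and 37.9 CPM with DMSO and 42.8 and 46.9 CPM with dTAG, with a log2 fold change of 0.18 (edgeR adjusted p = 0.22) that was 0.05 with the trends removed. It overlaps AKTIP. In these bulk libraries, more cells in a phase of the cycle in which a gene is transcribed and more transcription per cell cannot be told apart.

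**Figure D3:**
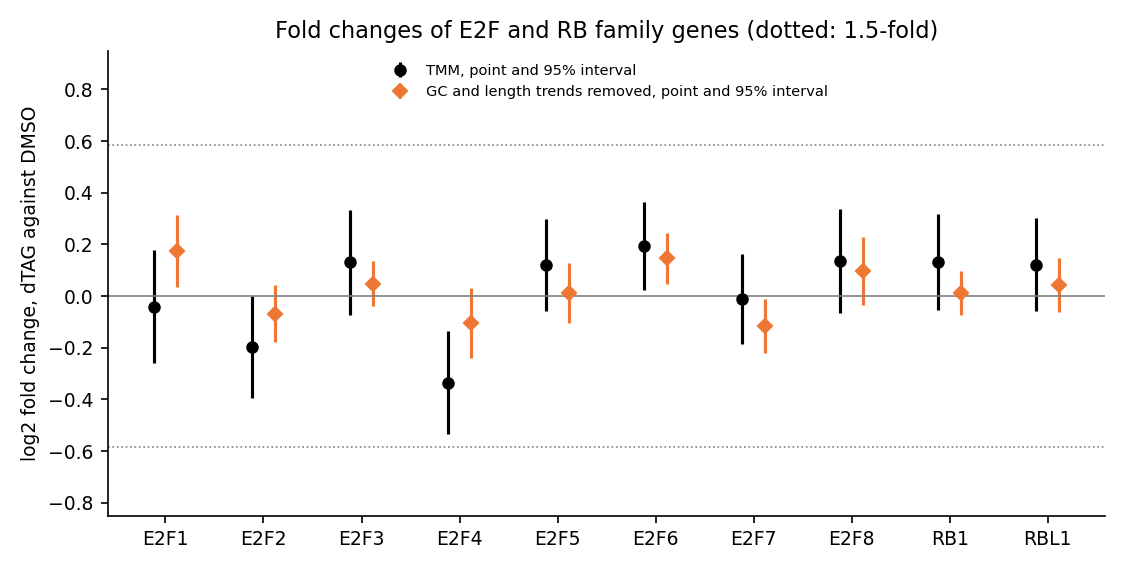
The log2 fold change of each gene, dTAG against DMSO, is plotted with its 95% interval from edgeR's quasi-likelihood fit, scaled by TMM (black circles) and after removal of each library's trends on GC content and gene length (orange diamonds), with dotted lines at 1.5-fold. In the first fit only the interval of E2F4 (-0.53 to -0.13) lies wholly below 0. Only that of E2F6 (0.02 to 0.36) lies wholly above it. With the trends removed E2F4 moves to -0.10 and E2F6 to 0.15. There the intervals of E2F1 (0.036 to 0.31) and E2F6 lie wholly above 0, and that of E2F7 (-0.22 to -0.010) wholly below it.

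The lowest log2 fold changes of the family were those of its members with the highest GC content. E2F1, E2F2 and E2F4, with GC contents of 55.6%, 51.7% and 56.5%, had the 3 lowest log2 fold changes, -0.04, -0.20 and -0.33. Within these 3 genes the values did not follow the order of GC content. The other 7 members, with GC contents between 38.5% (RB1) and 43.1% (RBL1), had log2 fold changes between -0.01 and 0.19. E2F4 and E2F1 are also the shortest members, at 6.75 and 10.7 kb, while E2F2, at 24.8 kb, is longer than E2F8 and E2F6. Through the tested genes as a whole, fold changes ran against GC content and with length, and GC content also set replicates of 1 group apart. The parts of GC content and length in the differences between members were not tested. Counting error was small beside the standard error of the fit, which also draws on the spread of other genes. Counting alone gives a standard error of the log2 fold change between 0.0066 (E2F3) and 0.027 (E2F1), against 0.082 to 0.10 in the fit. With the trends removed the fit gave 0.039 (RB1) to 0.064 (E2F1).

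**Figure D4:**
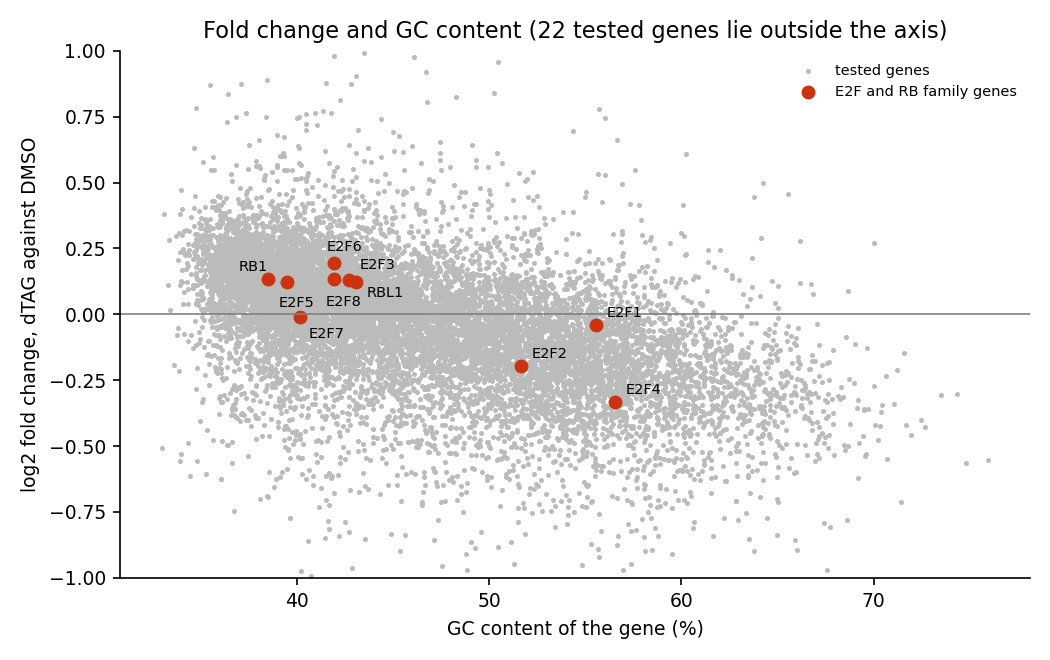
The log2 fold change of each tested gene, dTAG against DMSO, is plotted against the GC content of the whole gene in percent (grey), with the 10 members in red, and 22 genes outside the axis are not drawn. The members lie within the cloud, with E2F4 at 56.5% GC and -0.33 and E2F6 at 42.0% GC and 0.19.

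Of the genes that work with the E2Fs, the DP partners did not pass. TFDP1 had 98.3 and 98.2 CPM with DMSO and 103 and 99.6 CPM with dTAG, and its log2 fold change was 0.04 (edgeR adjusted p = 0.76), or 0.16 (adjusted p = 0.059) with the trends removed. TFDP2 had overlapping groups, with a log2 fold change of 0.10 (edgeR adjusted p = 0.49), or -0.02 with the trends removed.

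The MuvB core represses cell cycle genes with E2F4 and a pocket protein in the DREAM complex, and activates them with MYBL2 and FOXM1. Of the genes of these complexes, 1 of 7 tested genes rose and 0 fell, beside 3.44% and 3.66% of all tested genes. LIN54, the subunit that binds DNA, had 110 and 91.1 CPM with DMSO and 135 and 134 CPM with dTAG. Both dTAG libraries lay above both DMSO libraries, which differed from each other. Its log2 fold change was 0.42 (standard error 0.092, edgeR adjusted p = 0.0099) and 0.28 with the trends removed (adjusted p = 0.0012), and LIN54 overlaps THAP9. LIN37, named after its values were seen, was listed at 0 counts in all 4 libraries and overlaps another gene of the table (ENSG00000188223) on the same strand.

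Of 9 tested genes of G1 cyclins, their kinases and the phosphatase CDC25A, which activates such kinases, 1 rose and 0 fell. Among all tested genes, 3.44% rose and 3.66% fell. Complexes of these cyclins and kinases phosphorylate the pocket proteins. CDK6 had 121 and 101 CPM with DMSO and 139 and 144 CPM with dTAG, a log2 fold change of 0.35 (standard error 0.092, edgeR adjusted p = 0.027). With the trends removed it was 0.21 (adjusted p = 0.0032), and with a replicate block its adjusted p was 0.092. CCND1, the gene of cyclin D1, named here after its values were seen, had a log2 fold change of 0.17 (edgeR adjusted p = 0.24) that became 0.41 (adjusted p = 8.6e-04) with the trends removed. CCND2, also named after its values were seen, had 1 to 5 counts and was not tested.

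Of the 7 CDK inhibitors, which keep pocket proteins bound to E2Fs, 3 fell and 0 rose, beside 3.66% and 3.44% of all tested genes. At an unadjusted p under 0.05 the counts were 3 and 1, beside 14.3% and 12.3% of all tested genes. CDKN1A, the gene of p21, had 204 and 244 CPM with DMSO and 140 and 126 CPM with dTAG. The groups were far apart beside their spread. CDKN1A fell by 0.75 on the log2 scale (standard error 0.097, edgeR adjusted p = 5.6e-05) and by 0.55 with the trends removed. CDKN1B, the gene of p27, had 67.9 and 74.4 CPM with DMSO and 54.7 and 51.8 CPM with dTAG, and it fell by 0.42 (standard error 0.087, edgeR adjusted p = 0.0065) and by 0.37 with the trends removed. With libraries scaled by their ERCC totals its log2 fold change was 0.25, below the median of all genes in that scaling. CDKN1C, the gene of p57, had only 50 to 147 counts per library. It fell by 0.97 (standard error 0.28, edgeR adjusted p = 0.039), but DESeq2 gave an adjusted p of 0.072, and with the trends removed the log2 fold change was -0.59 (adjusted p = 0.10). CDKN2A and CDKN2B, named after their values were seen, had both dTAG libraries above both DMSO libraries, as did 28.1% of all tested genes. Their log2 fold changes were 0.19 (edgeR adjusted p = 0.18) and 0.24 (adjusted p = 0.48). Both genes overlap another counted gene (ENSG00000264545). CDKN2C, also named after its values were seen, had both dTAG libraries below both DMSO libraries, as did 30.7% of all tested genes. Its log2 fold change was -0.34 (edgeR adjusted p = 0.24). The median of the list was -0.34.

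No gene was called among the 9 genes of the E2F6 repressor complex or the 7 RB corepressors. Among all tested genes 3.44% were called higher and 3.66% lower. At an unadjusted p under 0.05, 2 genes of the E2F6 complex were higher and 2 lower, and 0 RB corepressors passed. At that threshold 12.3% of all tested genes were higher and 14.3% lower. DESeq2 called 1 gene of the E2F6 complex higher and 0 RB corepressors, beside 680 higher and 572 lower of the 12612 tested genes. With the trends removed, 1 gene of the E2F6 complex was called higher and 2 lower, beside 10.6% and 7.46% of all tested genes. The gene called higher was PCGF6 (0.19, adjusted p = 0.0060). Those called lower were MGA (-0.32, adjusted p = 4.3e-04) and RYBP (-0.13, adjusted p = 0.040). PCGF6, MGA and RYBP were named after their values were seen, and none of the RB corepressors was called in that setting. The 46 G1/S target genes encode replication and nucleotide synthesis proteins that E2Fs switch on. Of these, 45 were tested and 0 were called by edgeR's quasi-likelihood test, beside 3.44% and 3.66% of all tested genes. At an unadjusted p under 0.05, 11 of the 45 (24.4%) were higher and 2 (4.44%) lower, beside 12.3% and 14.3% of all tested genes. DESeq2 called 1 of the list higher and 0 lower, beside the same 680 and 572 of 12612 genes. The intervals of 43 of the 45 lay inside 1.5-fold, the other genes being RRM2, with a log2 fold change of -0.48 (adjusted p = 0.075), and FEN1, with 61 to 147 counts, which were named after their values were seen. The list's median was 0.069, and with the trends removed 5 of its genes (11.1%) were called higher and 0 lower, a share near the 10.6% of all tested genes called higher in that setting. Of the 38 target genes with a promoter window, 23 held an E2F word.

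**Figure D5:**
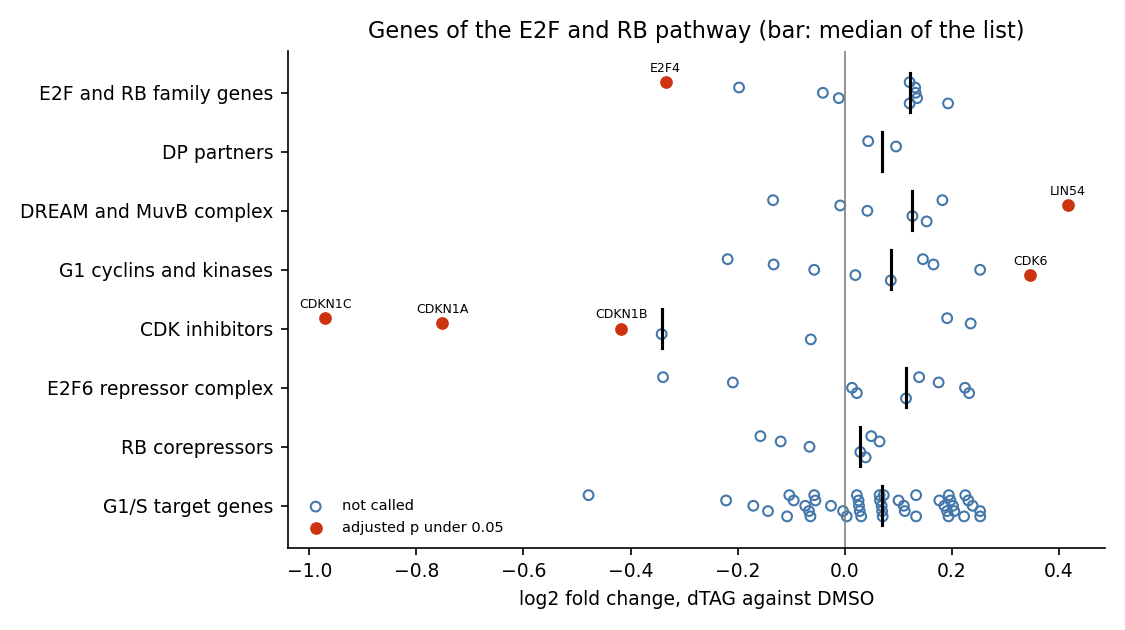
Each point is the log2 fold change of 1 tested gene, dTAG against DMSO, in the 10 members and the pathway lists (filled red, adjusted p under 0.05 by edgeR's quasi-likelihood test; open blue, not called), and bars are list medians. The called genes are E2F4, LIN54, CDK6, CDKN1A, CDKN1B and CDKN1C, and the median of the CDK inhibitors, -0.34, lies lowest.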

How the data were processed

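TT-Seq libraries of HCT116 KAP1dTAG cells (clone D5) were prepared with ribosomal RNA depletion and ERCC spike-in RNAs, 2 per condition. The authors used Trim Galore 0.6.4 for trimming and STAR for alignment to hg38, and the deposited values are raw counts with no normalization, from featureCounts (Subread 1.6.3) over whole protein-coding genes. The submitters' processing notes also name FastQC 0.11.8 and edgeR 3.40.1. The strand setting and the treatment of overlapping genes are not given in the sources used here. The labels give replicate numbers but do not say what they share, so p-values measure the spread between these libraries.

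Genes that reached 50 counts in every library were kept, scaled by TMM and tested in R 4.3.3 with edgeR 4.0.16 (quasi-likelihood test, two-sided, no replicate block, Benjamini-Hochberg adjustment over all tested genes). CPM are counts scaled to the normalized library size, as edgeR gives them. Standard errors were computed from the log2 fold change and its F statistic. The ERCC factor was estimated after the RUVg method from 14 ERCC RNAs, since the function used in the study is not stated. Trends were removed by lowess (span 0.3), on GC content and then gene length. DESeq2 1.42.0 was the other tool. The 13 alternatives are those of the closing section. The fits were tested on simulated data with known changes. Gene positions are 1-based hg38, as the deposited table gives them after adding 1 to each start, and overlaps come from GENCODE annotation.

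The members and pathway lists were chosen with earlier results of these data known. The genes named were the members, TRIM28, RBL2, TFDP1, TFDP2, called genes of each list, genes that overlap a member and the 3 nearest neighbours of the member with the lowest adjusted p. PTPRC, PECAM1, COL1A1, COL1A2, DCN and ALB are named as cell type markers. Other genes given with values are said to be named after these were seen. Some genes of the G1/S target list are not reported here by name.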

Additional observations from a re-analysis of the deposited data

How the results depend on the processing

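With 2 libraries per group, the standard errors of the fit exceeded those from counting alone in all 10 members. A fit that leaves out 1 library assumes that the lone library varies like the other group. Of the 10 members, 0 were called higher and 1 lower. With the replicate block these counts were 0 and 0, and with the numbers crossed, a pairing chosen after seeing the data, they were 1 and 2. The same-numbered libraries' deviations correlated at -0.24, so the numbers are not taken to pair the samples. With the GC and length trends removed the counts were 1 and 0, with ERCC totals or the ERCC factor 0 and 0, and with 1 library left out each ran from 0 to 2. Without DMSO replicate 1, the log2 fold change was 0.18 for E2F6, 0.24 for RB1, -0.34 for E2F2 and -0.38 for E2F4. Without DMSO replicate 2, the values of these genes were 0.20, 0.030, -0.03 and -0.29. The members' median of 0.12 was 0.048 with upper-quartile normalization, 0.76 with ERCC totals (where the median of all genes was 0.64), 0.090 with the ERCC factor, 0.027 with the trends removed and 0.077 to 0.11 with 1 library left out.

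Of the 87 other pathway genes, a few of which were not tested, 2 were called higher and 3 lower. Among all tested genes these shares were 3.44% and 3.66%. Counts over all tested genes in the same settings follow those of the pathway genes. The count of higher genes was 4 with DESeq2, 1 with upper-quartile normalization, 0 with ERCC totals, 8 with the ERCC factor, 1 with the replicate block, 15 with it crossed, 9 with the trends removed and 0 to 26 with 1 library left out (26 when DMSO replicate 1 was left out and 6 when DMSO replicate 2 was). The count of lower genes was 5 with upper-quartile normalization or the likelihood ratio test, 0 with ERCC totals, 8 with the crossed block and 1 to 13 with 1 library left out (13 without DMSO replicate 1). Over all tested genes, 434 higher and 461 lower became 680 and 572 with DESeq2, 255 and 869 with upper-quartile normalization, 0 and 0 with ERCC totals, 797 and 525 with the ERCC factor, 162 and 178 with the replicate block, 1587 and 1603 with it crossed, 1343 and 941 with the trends removed, 729 and 864 with the likelihood ratio test and 673 and 744 with no filter on low counts. Without 1 library they ran from 48 to 2798 higher and from 21 to 2693 lower.

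Directions changed for E2F1 (0.64 with ERCC totals, 0.12 with the ERCC factor, 0.18 with the trends removed, -0.14 to 0.068 with 1 library left out), E2F2 (0.49 with ERCC totals and 0.069 with the ERCC factor), E2F4 (0.31 with ERCC totals), E2F7 (6.8e-04 with DESeq2, 0.63 with ERCC totals, 8.1e-04 with the ERCC factor, -0.049 to 0.029 with 1 library left out), RB1 (-0.041 with the ERCC factor), TRIM28 (0.29 with ERCC totals), TFDP1 (-0.030 with upper-quartile normalization), TFDP2 (-0.027 with the ERCC factor and -0.021 with the trends removed) and CDKN1B (0.25 with ERCC totals). The ratio of the highest to the lowest level among the members was 12.7 per length of exon and 16.7 per length of gene. The causes of these changes were not tested. CDKN1A was called in every alternative but the ERCC totals. LIN54 and CDKN1B were not called with the ERCC totals or without either dTAG replicate, and neither was CDK6 (adjusted p = 0.33 and 0.83). CDK6 was also not called with upper-quartile normalization, the ERCC factor or the replicate block. CDKN1C was not called with DESeq2, the ERCC totals, the ERCC factor or the trends removed, nor without DMSO replicate 2 or either dTAG replicate (adjusted p = 0.059 to 0.87).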
